A study of Saccharomyces cerevisiae with 24 samples.

Results

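Acetate is the main carbon source of budding yeast in sporulation medium, and the 10 genes described here encode the enzymes and the transporter that bring it into metabolism and turn it into sugar. They were taken by systematic name from a count table of 6157 features: ADY2 (YCR010C), ALD4 (YOR374W), ALD6 (YPL061W), ACS1 (YAL054C), ACS2 (YLR153C), ICL1 (YER065C), MLS1 (YNL117W), MDH2 (YOL126C), PCK1 (YKR097W) and FBP1 (YLR377C). All 10 were found and all 10 passed the filter on low counts, as did 5698 of the 6157 features. The study profiled polyadenylated RNA of meiotic diploid yeast with and without Pho92, a reader of N6-methyladenosine in mRNA with a YTH domain. There were 8 groups of 3 libraries. In 5 groups the only Pho92 was a mutant expressed with an HA tag from the copper-inducible CUP1 promoter at the TRP1 locus, in a strain whose own PHO92 was deleted: a deletion of residues 35 to 42 (Δ35–42), or the substitutions L35A, L38P, I39A or W177A. CUP1-PHO92 carried the wild-type HA-tagged protein in the same way, pho92Δ carried the deletion marked with hygromycin resistance, and WT kept its own PHO92. All 8 groups were MATa/MATalpha diploids that carried lys2 with ho::LYS2, the ura3 marker, and hisG insertions in leu2, his3 and trp1. All had been grown in YPD with 2% glucose and then overnight in BYTA with 1% potassium acetate, before transfer to sporulation medium with 0.3% potassium acetate and 0.02% raffinose. All, WT and pho92Δ included, received 50 µM copper sulfate 3 h after the transfer. The time of collection after copper is not given in the sources used here, nor whether the 3 libraries of a group came from separate cultures, so p-values measure the spread between these libraries. For I39A the genotype label says L39A, and header lines give the W177A libraries the strain number of CUP1-PHO92 and a group name with the word delete. Groups follow the sample titles.

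Acetate crosses the plasma membrane partly through Ady2, or arises in the cell from acetaldehyde through the aldehyde dehydrogenases Ald4 (mitochondrial) and Ald6 (cytosolic), and the acetyl-CoA synthetases Acs1 and Acs2 activate it to acetyl-CoA. The glyoxylate cycle, with isocitrate lyase (Icl1), malate synthase (Mls1) and the cytosolic malate dehydrogenase (Mdh2), makes dicarboxylic acids from acetyl-CoA. Phosphoenolpyruvate carboxykinase (Pck1) and fructose-1,6-bisphosphatase (Fbp1) catalyse the steps that commit these acids to sugar. In yeast many of these genes are repressed by glucose and are switched on without it by the zinc-cluster activators Cat8 and Sip4 through a promoter element called the carbon source-responsive element (CSRE). ACS2 and ALD6 are known instead as the isoforms used by cells growing on glucose.

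The windows that match the CSRE are shown because 7 of the 10 genes share the element. The 600 bases before each start codon in RefSeq R64 were searched on both strands for the CSRE consensus, which is known from ICL1, FBP1 and other gluconeogenic genes and so was not defined independently of them. It was present in 7 of the 10 genes, and in 32 of the 5999 genes of the annotation with such a window (0.533%). ALD4, ALD6 and ACS2 had no match in this window. In the lines below each window is read 5′ to 3′ on the coding strand of its gene, with the 11 matching bases in capitals. MLS1 has a pair of matches. The matches start between 377 and 562 bases before the start codon.
ADY2: gtccactgcCCGTTGATCCGgagctccgt
ACS1: taatcatctCGGACGAACGGcgtagcact
ICL1: cccaggtttCCATTCATCCGagcgatcac
MLS1: cattgctatCGGCTCAATGGaaatcccca
MLS1: tcatagcttCCATTGGGCCGatgaagtta
MDH2: ttactttgcCCATTCGGCCGtagccgttc
PCK1: ggacgctgaCGGGTGAATGGagatctgga
FBP1: tctcttttcCGGACGGATGGaatcgccgc
These windows lie at chrIII:133616-133644 for ADY2, chrI:45428-45456 for ACS1, chrV:287293-287321 for ICL1, chrXIV:405818-405846 for MLS1, chrXIV:405849-405877 for MLS1, chrXV:83278-83306 for MDH2, chrXI:630581-630609 for PCK1 and chrXII:875277-875305 for FBP1 (R64, of which those of PCK1 and MLS1 belong to genes on the plus strand and the others to genes on the minus strand). A match is a stretch of letters and not a binding site measured here. The core of URS1, the element bound by Ume6 and known from early meiotic genes, reads GGCGGC and none of its matches overlapped a CSRE match. On either strand of the same windows it occurred in ADY2, ACS1 and MDH2, and in 682 of the 5999 genes (11.4%).

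Most of these transcripts were among the most abundant of the cell. The 10 genes together held between 5.79% and 7.52% of all counts in a library. Levels between genes are compared as CPM per kb of coding length, averaged over the 24 libraries (CPM, counts relative to the TMM-scaled library size). On this scale ADY2 reached 20549, ACS1 9606, MDH2 6446, ALD4 4589.7, MLS1 4069, ICL1 2265 and PCK1 1871 CPM per kb. ACS2 followed with 291, FBP1 with 128 and ALD6 with 30.8 CPM per kb. The genes at the bottom of this order were thus both glucose-phase isoforms and, between them, FBP1, the last enzyme of the set on the way to sugar. The order of variation was different. The ratio of the highest to the lowest of the 8 group means was 3.43 for ALD6, 2.91 for ACS2, 2.40 for PCK1 and 1.92 for ICL1, and it ran from 1.31 (MDH2) to 1.69 (ADY2) for the other 6. The SD of log2 CPM within groups, pooled over groups, was 0.38 for ALD6, 0.28 for FBP1, 0.23 for PCK1 and 0.23 for ACS2, against a median of 0.17 over all tested features. It was smallest among the 10 in MDH2 (0.079) and ALD4 (0.094).

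**Figure D1:**
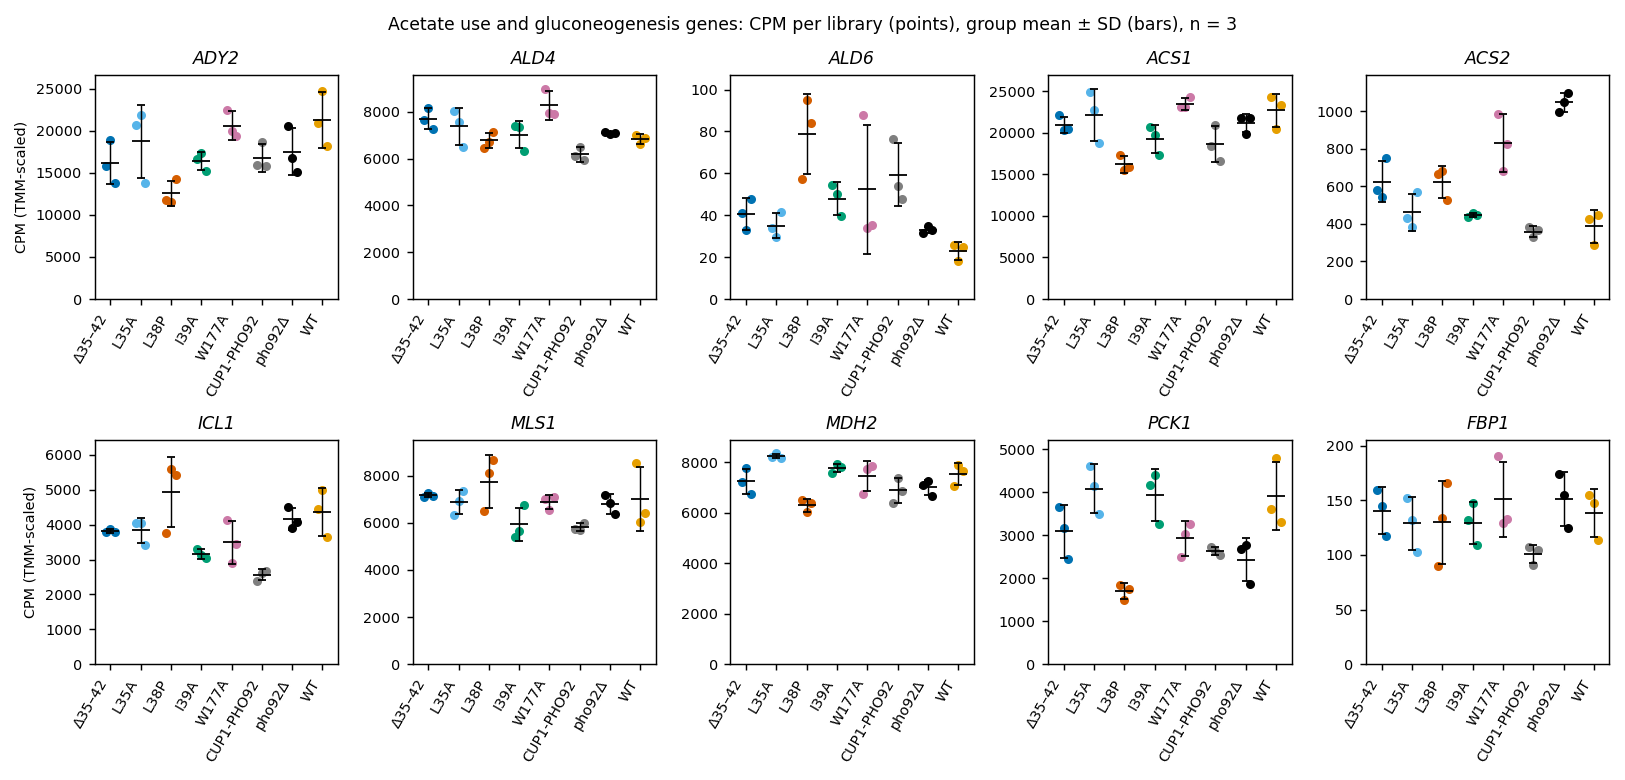
CPM of each of the 10 genes (vertical axes, linear, from 0) in every library (points) of the 8 groups (horizontal axes), with the group mean as a line and the SD over 3 libraries as an error bar. ACS2 is highest in pho92Δ, at 995 to 1095 CPM, ICL1 is lowest in CUP1-PHO92, at 2400.0 to 2685 CPM, and PCK1 is lowest in L38P, at 1489 to 1845 CPM.

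Total counts ranged from 16108079 to 36733806 per library. PHO92 had 0.279 ± 0.411 CPM in pho92Δ and 859 ± 61.1 CPM in WT, and group means of 9159 to 12686 CPM in the 6 CUP1 strains (SD, n = 3). The libraries also differed in meiotic transcripts. Many middle meiotic genes are switched on by Ndt80 at the exit from prophase. A list of 19 genes taken as middle meiotic held NDT80 itself and, among others, DIT1, DIT2 and SPR1. Their summed CPM was 1193 to 2562 in Δ35–42, 3769.7 to 13842 in L35A and 3884 to 6367 in I39A. This sum was 934 to 2819.9 in W177A and 433 to 980.2 in L38P. It was 2084 to 6245 in CUP1-PHO92, 1014 to 1432 in pho92Δ and 3453 to 17682 in WT, whose replicate 2 stood highest of all 24. None of the 19 was at 0 counts in any library. The summed CPM of 12 early meiotic genes was 8703 to 12883 in L38P and between 17328 and 23829 in the other 7 groups. In polyadenylated RNA of a whole culture, fewer cells at a stage and less RNA per cell cannot be told apart, and a change in CPM may be one of amount or of share. A header line named batch places L38P replicate 2 and W177A replicate 1 in batch B and the other 22 libraries in batch A. No comparison can be made within batch B, so results are also given from batch A alone where that changes the call. L38P then lacks replicate 2 and W177A lacks replicate 1, as in the fits that leave out these libraries. A smaller group and a batch difference cannot be told apart there. Comparisons without L38P and W177A keep all their libraries in batch A alone. Their values change only through the filter, scaling and dispersion shared by all groups.

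Against CUP1-PHO92, 0 to 5 of the 10 genes were called in a mutant, nearly all of them higher. With 10 genes, the 30% called in Δ35–42 and in L35A are near the shares of all features given below. Those counts, like the 0 in I39A, are no result about the 10. The test was edgeR's quasi-likelihood test over all 24 libraries, with p-values adjusted by Benjamini-Hochberg over 5698 features, and a gene was called at an adjusted p under 0.05. In Δ35–42, 3 of the 10 genes rose and none fell, where 21.8% of all features were called (11.9% higher and 9.97% lower). In L35A, 3 rose and none fell, against 22.6% of all features called (11.3% higher and 11.4% lower). In L38P, 3 rose and 1 fell, against 44.0% of all features called (23.1% higher and 20.9% lower), so the share of the 10 genes was near that of all features. In W177A, 5 rose and none fell, against 27.9% of all features called (14.9% higher and 13.0% lower). In batch A alone, only ALD4 and ACS2 of these 5 kept the call, and ALD6 was called lower. In I39A, 0 of the 10 genes were called by edgeR, 1 (PCK1) had an unadjusted p under 0.05 and DESeq2 called 0, where 0.0527% of all features were called. That is 3 features, and 6 when the replicate number was a block. The median log2 fold change (log2FC) of the 10 genes against CUP1-PHO92 was 0.27 in Δ35–42, 0.26 in L35A, 0.25 in L38P, 0.18 in I39A and 0.31 in W177A. Over all features it lay between -0.021 and 0.042. These 5 comparisons share the 3 CUP1-PHO92 libraries.

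Among CUP1-PHO92, pho92Δ and WT, 2 to 4 of the 10 genes were called in a comparison. In pho92Δ against WT, ACS2 rose and PCK1 fell, and 17.7% of all features were called (8.18% higher and 9.48% lower). In CUP1-PHO92 against WT, ALD6 rose and ICL1 fell, and 6.93% of all features were called (3.93% higher and 3.00% lower). In CUP1-PHO92 against pho92Δ, ALD6 rose and ACS2, ICL1 and FBP1 fell, and 34.6% of all features were called (16.8% higher and 17.8% lower). The median log2FC of the 10 genes was -0.056, -0.28 and -0.19 in these 3 comparisons, against 0.0029, -0.013 and 0.0023 over all features.

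Against pho92Δ, edgeR called genes among the 10 only in the mutants where many features were called. The 20% of the 10 genes called in L35A and in I39A are near the shares of all features. Those counts, like the 0 in Δ35–42 and W177A, are no result about the 10. In Δ35–42 edgeR called 0 of the 10 genes (0.105% of all features), 1 (ACS2) had an unadjusted p under 0.05 and DESeq2 called 1 (ACS2). In W177A edgeR called 0 of the 10 (1.35% of all features, or 77, and 158 with the replicate block), 2 (ALD4 and ALD6) had an unadjusted p under 0.05 and DESeq2 called 0. The same 2 genes were called in L35A (21.0% of all features, 9.86% higher and 11.2% lower) and in I39A (20.8%, 10.4% higher and 10.5% lower): PCK1 rose and ACS2 fell in both. In L38P, ALD6 rose and ADY2, ACS1, ACS2 and PCK1 fell (29.4% of all features, 15.3% higher and 14.1% lower). These 5 comparisons share the 3 pho92Δ libraries.

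**Figure D2:**
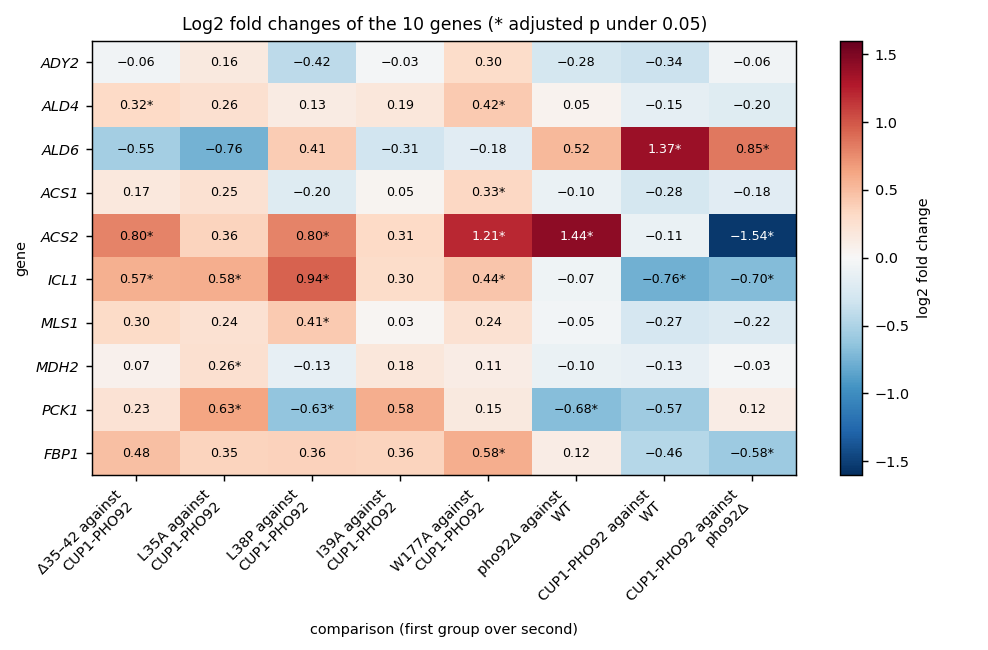
Log2 fold changes of the 10 genes (vertical axis) in 8 comparisons, the 5 mutants against CUP1-PHO92 and those among CUP1-PHO92, pho92Δ and WT (horizontal axis), as colour and printed value, with an asterisk at an adjusted p under 0.05 (edgeR). ICL1 is called higher in Δ35–42, L35A, L38P and W177A against CUP1-PHO92, and ACS2 in Δ35–42, L38P and W177A.

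ADY2, the acetate transporter gene, was high in every library and was called in 1 comparison. It had 11802, 11572 and 14285 CPM in the L38P libraries, against 20588, 16775 and 15132 CPM in pho92Δ. The 3 L38P libraries lay below the 3 of pho92Δ, and ADY2 fell with a log2FC of -0.48 (SE 0.171, adjusted p 0.0402). This was not called without L38P replicate 1 or 2 or pho92Δ replicate 1 or 2 (log2FC -0.35 to -0.52, adjusted p 0.0788 to 0.189), nor in batch A alone (-0.43, adjusted p 0.151). Against CUP1-PHO92 the log2FC in L38P was -0.42 (SE 0.171, adjusted p 0.0521), and ADY2 was called lower with the replicate block (log2FC -0.40, adjusted p 0.0331), by DESeq2 (log2FC -0.44, adjusted p 0.0307) and without L38P replicate 3 (log2FC -0.52, adjusted p 0.0372). Group means of ADY2 elsewhere were 16163 ± 2542 CPM in Δ35–42, 18753 ± 4367 in L35A, 16419.5 ± 1090.2 in I39A and 20627 ± 1667 in W177A (SD, n = 3). They were 16797 ± 1637 CPM in CUP1-PHO92 and 21254 ± 3301 CPM in WT, with libraries of WT and CUP1-PHO92 overlapping.

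The mitochondrial and the cytosolic acetaldehyde dehydrogenase genes behaved differently. ALD4, one of the genes without a CSRE match, varied little. It had 8981, 7953 and 7892 CPM in W177A, 7669.9, 8176 and 7265 CPM in Δ35–42 and 6095, 6515 and 5927 CPM in CUP1-PHO92, the group with the lowest mean. Every library of both mutants lay above the 3 of CUP1-PHO92. ALD4 rose in W177A by a log2FC of 0.42 (SE 0.0979, adjusted p 0.00383), a call kept in all 6 fits that each left out 1 library and in batch A alone. In Δ35–42 it rose by 0.32 (SE 0.0979, adjusted p 0.0258), which was not called without CUP1-PHO92 replicate 1 or 3 or Δ35–42 replicate 1 or 2 (log2FC 0.27 to 0.32, adjusted p 0.0654 to 0.0932). In L35A its log2FC was 0.26 (SE 0.0978, adjusted p 0.0643). ALD4 was called higher there by DESeq2 (log2FC 0.27, adjusted p 0.0195) and without L35A replicate 3 (log2FC 0.34, adjusted p 0.0232). It was also called higher in batch A alone (0.28, adjusted p 0.0465), which removes no library of L35A or CUP1-PHO92.

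ALD6, which likewise had no CSRE match, was a low transcript with wide spread. It had 40.9, 32.9 and 48.0 CPM in Δ35–42, 33.9, 29.8 and 41.5 CPM in L35A and 57.4, 94.9 and 83.9 CPM in L38P. The I39A libraries had 54.3, 50.1 and 39.4 CPM and the W177A libraries 87.7, 34.0 and 35.3 CPM, the first of which is the batch B library. CUP1-PHO92 had 76.4, 53.9 and 47.8 CPM, pho92Δ 31.6, 34.7 and 32.7 CPM and WT 26.0, 18.1 and 24.8 CPM. All libraries of L38P and CUP1-PHO92 lay above all those of pho92Δ and WT. ALD6 rose in CUP1-PHO92 against WT by a log2FC of 1.37 (SE 0.294, adjusted p 0.00751), not called without CUP1-PHO92 replicate 1 (log2FC 1.14, adjusted p 0.0561). Against pho92Δ it rose in L38P by 1.25 (SE 0.291, adjusted p 0.00309), a call kept in all 6 fits without 1 library, and in CUP1-PHO92 by 0.85 (SE 0.290, adjusted p 0.0300), not called without CUP1-PHO92 replicate 1 or pho92Δ replicate 1, 2 or 3 (log2FC 0.62 to 0.86, adjusted p 0.0663 to 0.138). With the batch A libraries alone, ALD6 was called lower in W177A than in CUP1-PHO92 (log2FC -0.78, adjusted p 0.0154), whereas with all libraries its log2FC was -0.18 (SE 0.286, adjusted p 0.673). In L35A it was -0.76 (SE 0.289, adjusted p 0.0643), called lower in batch A alone (-0.74, adjusted p 0.0106) and by DESeq2 (log2FC -0.75, adjusted p 0.0358). Per kb of coding length ALD4 exceeded ALD6 86.3 ± 20.5-fold in L38P, 104 ± 23.8-fold in CUP1-PHO92, 207 ± 11.3-fold in pho92Δ and 293 ± 51.5-fold in WT (mean ± SD of the ratios per library, n = 3).

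Of the acetyl-CoA synthetase genes, ACS2 changed most and in the largest number of comparisons, while ACS1, the isoform of cells without glucose, was the most abundant feature by CPM averaged over all libraries. ACS2, without a CSRE match, had 384, 328 and 366 CPM in CUP1-PHO92, 995, 1051 and 1095 CPM in pho92Δ and 426, 286 and 448 CPM in WT. The pho92Δ libraries lay above all the others, and CUP1-PHO92 lay within the range of WT. ACS2 rose in pho92Δ 2.71-fold, a log2FC of 1.44 (SE 0.177, adjusted p 4.73e-05). In CUP1-PHO92 its log2FC against WT was -0.11 (SE 0.174, adjusted p 0.747), with a 95% interval of -0.47 to 0.26. Against pho92Δ, ACS2 fell in CUP1-PHO92 with a log2FC of -1.54 (SE 0.178, adjusted p 4.43e-06).

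The mutants lay between these levels. ACS2 had 985, 679.7 and 822 CPM in W177A, 582, 545 and 749.8 CPM in Δ35–42 and 665, 682 and 525 CPM in L38P, and each of these libraries lay above the 328 to 384 CPM of CUP1-PHO92. The log2FC against CUP1-PHO92 was 1.21 (SE 0.176, adjusted p 6.62e-05) in W177A, 0.80 (SE 0.175, adjusted p 0.00340) in Δ35–42 and 0.80 (SE 0.175, adjusted p 0.00124) in L38P, so ACS2 rose in all 3. L35A had 429, 384 and 570.0 CPM and I39A 435, 458 and 448 CPM. The I39A libraries lay above those of CUP1-PHO92 and the L35A libraries overlapped them, with log2FC values of 0.36 (SE 0.174, adjusted p 0.142) and 0.31 (SE 0.174, adjusted p 0.441) that were not called. The 95% intervals were -0.0038 to 0.72 in L35A and -0.049 to 0.68 in I39A.

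Against pho92Δ, ACS2 fell in I39A (log2FC -1.23, SE 0.176, adjusted p 1.60e-04), in L35A (log2FC -1.18, SE 0.176, adjusted p 5.91e-04) and in L38P (log2FC -0.75, SE 0.175, adjusted p 0.00333). In Δ35–42 the log2FC was -0.74 (SE 0.175, adjusted p 0.0968) with a 95% interval of -1.11 to -0.38, although all 3 libraries lay below those of pho92Δ. It was called with the replicate block (adjusted p 0.0379), with batch A alone (adjusted p 0.0476) and with DESeq2 (adjusted p 0.00653). In W177A it was -0.34 (SE 0.174, adjusted p 0.411), with an interval of -0.70 to 0.027. Each of the 8 calls of ACS2 was kept in every fit that left out 1 library and under every other setting tried. Neighbours in the order of ACS2 means that were not compared directly were Δ35–42 (625 ± 109) and L38P (624 ± 86.1 CPM), whose libraries overlapped, as did those of I39A (447 ± 11.7) and L35A (461 ± 97.2 CPM).

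ACS1 itself moved less. It had 17364, 15486 and 15829.8 CPM in L38P, below the 21750.0, 19896 and 21837 CPM of pho92Δ, and fell with a log2FC of -0.38 (SE 0.119, adjusted p 0.0209). That call was lost without L38P replicate 2 or 3 or pho92Δ replicate 1 or 3 (log2FC -0.35 to -0.37, adjusted p 0.0620 to 0.0778) and in batch A alone (-0.36, adjusted p 0.0881). In W177A ACS1 had 23058, 23094 and 24282 CPM, against 18459.7, 20949.9 and 16570.0 CPM in CUP1-PHO92, and rose with a log2FC of 0.33 (SE 0.119, adjusted p 0.0439). It was not called with RLE scaling (adjusted p 0.0505), without the filter on low counts (adjusted p 0.0552), in batch A alone (0.34, adjusted p 0.0846), or without CUP1-PHO92 replicate 1 or 3 or W177A replicate 1, 2 or 3 (log2FC 0.25 to 0.34, adjusted p 0.0753 to 0.186). In L35A its log2FC was 0.25 (SE 0.119, adjusted p 0.142), called higher without L35A replicate 3 (log2FC 0.35, adjusted p 0.0446). The ratio of ACS1 to ACS2 per kb of coding length was 32.8 ± 5.80 in Δ35–42, 47.9 ± 14.2 in L35A, 25.2 ± 3.57 in L38P, 41.3 ± 4.22 in I39A and 27.7 ± 5.09 in W177A. It was 50.2 ± 9.54 in CUP1-PHO92, 19.4 ± 1.43 in pho92Δ and 57.8 ± 9.75 in WT (SD, n = 3). The share of ACS2 in acetyl-CoA synthetase mRNA was therefore greatest in pho92Δ, yet ACS1 exceeded ACS2 in every library.

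**Figure D3:**
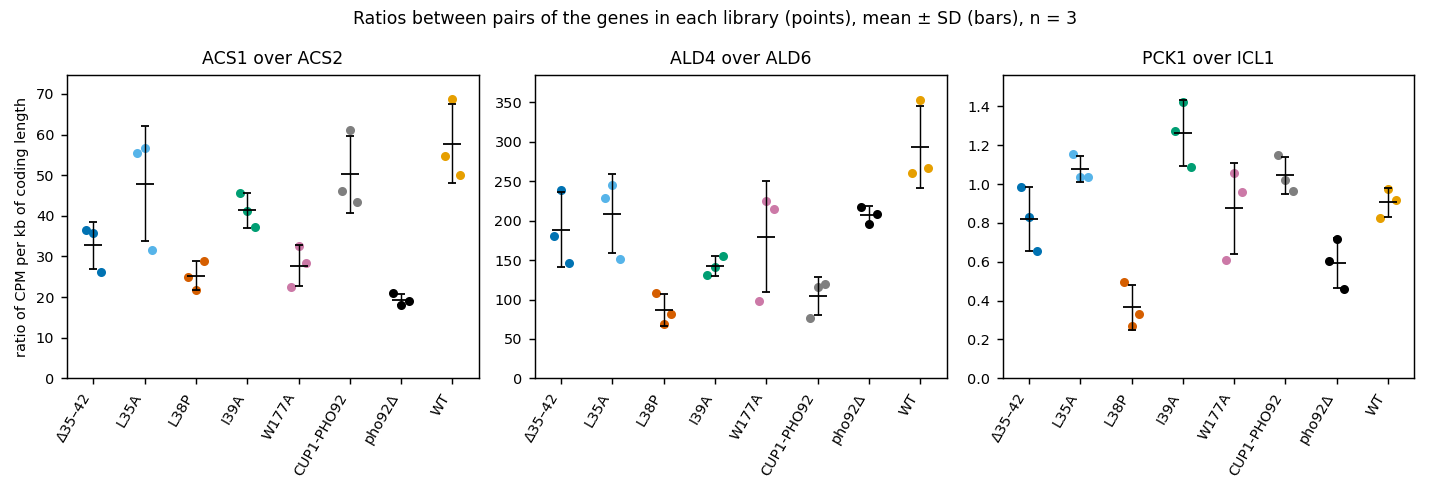
Ratios of CPM per kb of coding length within a library (points, linear axes from 0) for ACS1 over ACS2, ALD4 over ALD6 and PCK1 over ICL1 in the 8 groups, with the mean as a line and the SD over 3 libraries as an error bar. ACS1 over ACS2 has a mean of 19.4 ± 1.43 in pho92Δ and 57.8 ± 9.75 in WT, and PCK1 over ICL1 is lowest in L38P (0.365 ± 0.118).

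In the glyoxylate cycle, ICL1, which carries a CSRE match as shown above, was the gene called most often, and it was lowest in the strain with the wild-type protein from the CUP1 promoter. ICL1 had 2400.0, 2619 and 2685 CPM in CUP1-PHO92, 4513, 3908 and 4084 CPM in pho92Δ and 4434, 5006 and 3642 CPM in WT. All 3 CUP1-PHO92 libraries lay below those of the other two groups, while pho92Δ and WT overlapped. ICL1 fell in CUP1-PHO92 with a log2FC of -0.76 (SE 0.147, adjusted p 0.00386) against WT and -0.70 (SE 0.147, adjusted p 0.00133) against pho92Δ. The mutant libraries had 3781, 3875 and 3789.6 CPM in Δ35–42, 4058, 4039.5 and 3416 CPM in L35A and 3768, 5605 and 5426 CPM in L38P, with 3311, 3133 and 3041 CPM in I39A and 4120.0, 2909.6 and 3444 CPM in W177A. Every one of these 15 libraries lay above the 2400.0 to 2685 CPM of CUP1-PHO92.

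The rise of ICL1 against CUP1-PHO92 was called in 4 mutants. Its log2FC was 0.94 (SE 0.148, adjusted p 6.92e-05) in L38P, 0.58 (SE 0.147, adjusted p 0.00838) in L35A and 0.57 (SE 0.147, adjusted p 0.00998) in Δ35–42, calls kept in every fit without 1 library. In W177A it was 0.44 (SE 0.147, adjusted p 0.0305), lost in batch A alone (0.30, adjusted p 0.154) and without CUP1-PHO92 replicate 1, 2 or 3 or W177A replicate 1 or 3 (log2FC 0.30 to 0.48, adjusted p 0.0579 to 0.169). In I39A it was 0.30 (SE 0.147, adjusted p 0.391), not called, with a 95% interval of -0.0059 to 0.61. Against pho92Δ no mutant was called with all libraries, with log2FC values of -0.13 (Δ35–42), -0.12 (L35A), 0.24 (L38P), -0.40 (I39A) and -0.26 (W177A). ICL1 in I39A was called lower there without the filter on low counts (log2FC -0.44, adjusted p 0.0499), in batch A alone (-0.41, adjusted p 0.0403) and by DESeq2 (log2FC -0.40, adjusted p 0.0401). In L38P it was called higher without L38P replicate 1 (log2FC 0.40, adjusted p 0.0287).

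MLS1, which encodes malate synthase, the enzyme after isocitrate lyase, rose with ICL1 in L38P. It had 6480.2, 8092 and 8666 CPM in L38P and 5747, 5696 and 6005 CPM in CUP1-PHO92, a log2FC of 0.41 (SE 0.129, adjusted p 0.0140), and was not called without L38P replicate 2 or 3 (log2FC 0.32 to 0.38, adjusted p 0.0511 to 0.0716). In Δ35–42 its log2FC against CUP1-PHO92 was 0.30 (SE 0.128, adjusted p 0.0967), and DESeq2 called it higher (log2FC 0.32, adjusted p 0.0335). Group means elsewhere ran from 5932 ± 711 CPM in I39A to 7162 ± 87.6 CPM in Δ35–42. MDH2, the cytosolic malate dehydrogenase of the cycle, was the steadiest of the 10 genes. It had 8215, 8354 and 8180.2 CPM in L35A and 6408, 7381 and 6871 CPM in CUP1-PHO92, and rose by a log2FC of 0.26 (SE 0.0906, adjusted p 0.0444). This call was lost without CUP1-PHO92 replicate 1 or 3 or L35A replicate 1, 2 or 3 (log2FC 0.21 to 0.28, adjusted p 0.0682 to 0.167). Against pho92Δ the log2FC of MDH2 in L35A was 0.23 (SE 0.0906, adjusted p 0.0726), called by DESeq2 (log2FC 0.25, adjusted p 0.0125).

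PCK1, the gene of the enzyme that leads from oxaloacetate to phosphoenolpyruvate, changed in both directions. It had 2718, 2637 and 2551 CPM in CUP1-PHO92, 2677, 2762 and 1857 CPM in pho92Δ and 3618, 4802 and 3298 CPM in WT, with every CUP1-PHO92 and pho92Δ library below those of WT. In pho92Δ PCK1 fell with a log2FC of -0.68 (SE 0.182, adjusted p 0.0139), which was not called without WT replicate 2 or pho92Δ replicate 3 (log2FC -0.48 to -0.52, adjusted p 0.0885 to 0.162). WT replicate 2 had both the highest PCK1 and the highest middle meiotic sum of the 24 libraries. For CUP1-PHO92 the log2FC against WT was -0.57 (SE 0.181, adjusted p 0.0631), called with the replicate block (adjusted p 0.0352) and DESeq2 (adjusted p 0.0290).

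Among the mutants PCK1 was high in L35A and I39A and low in L38P. L35A had 4619, 4134 and 3490.2 CPM, I39A 4157, 4398 and 3255 CPM and L38P 1845, 1489 and 1760.1 CPM, while Δ35–42 had 3662, 3163 and 2444 CPM and W177A 2484, 3031 and 3262 CPM. All L38P libraries lay below those of CUP1-PHO92 (2551 to 2718 CPM), and all L35A and I39A libraries above them. In L38P PCK1 fell with a log2FC of -0.63 (SE 0.182, adjusted p 0.00853), kept in every fit without 1 library but lost in batch A alone (-0.54, adjusted p 0.0578). In L35A it rose with a log2FC of 0.63 (SE 0.182, adjusted p 0.0177), not called without CUP1-PHO92 replicate 3 or L35A replicate 1 (log2FC 0.56 to 0.61, adjusted p 0.0666 to 0.0822). In I39A the log2FC was 0.58 (SE 0.181, adjusted p 0.241), with an interval of 0.20 to 0.96.

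Against pho92Δ, PCK1 rose in L35A (log2FC 0.75, SE 0.182, adjusted p 0.00858), and this was not called without pho92Δ replicate 3 (log2FC 0.59, adjusted p 0.0525). It rose in I39A (log2FC 0.69, SE 0.182, adjusted p 0.0126), not called without I39A replicate 2 or pho92Δ replicate 3 (log2FC 0.53 to 0.61, adjusted p 0.0680 to 0.0809). It fell in L38P (log2FC -0.52, SE 0.181, adjusted p 0.0367), not called in batch A alone (-0.43, adjusted p 0.151) or without L38P replicate 2 or 3 or pho92Δ replicate 1 or 2 (log2FC -0.42 to -0.55, adjusted p 0.0741 to 0.155). The ratio of PCK1 to ICL1 per kb was 0.365 ± 0.118 in L38P and 1.26 ± 0.169 in I39A, against 1.04 ± 0.0948 in CUP1-PHO92, 0.593 ± 0.128 in pho92Δ and 0.907 ± 0.0735 in WT (SD, n = 3). ICL1 and PCK1 thus lay on opposite sides of CUP1-PHO92 in L38P.

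FBP1, whose product removes a phosphate from fructose-1,6-bisphosphate, was a much lower transcript than PCK1. It had 190.5, 129 and 133 CPM in W177A, 107, 91.2 and 104 CPM in CUP1-PHO92 and 174, 155 and 125 CPM in pho92Δ. The 3 CUP1-PHO92 libraries lay below those of both. FBP1 rose in W177A against CUP1-PHO92 by 0.58 (SE 0.208, adjusted p 0.0430), a call lost in batch A alone (0.37, adjusted p 0.236) and without CUP1-PHO92 replicate 1, 2 or 3 or W177A replicate 1 or 3 (log2FC 0.37 to 0.66, adjusted p 0.0514 to 0.222). It fell in CUP1-PHO92 against pho92Δ, with a log2FC of -0.58 (SE 0.208, adjusted p 0.0365), and was not called without CUP1-PHO92 replicate 1, 2 or 3 or pho92Δ replicate 1 or 2 (log2FC -0.46 to -0.63, adjusted p 0.0573 to 0.144). In L38P against CUP1-PHO92 its log2FC was 0.36 (SE 0.208, adjusted p 0.161), called higher without L38P replicate 1 (log2FC 0.57, adjusted p 0.0292). In the other groups its means were 141 ± 21.7 CPM in Δ35–42, 129 ± 24.4 in L35A, 129.8 ± 38.3 in L38P, 129 ± 19.3 in I39A and 139 ± 22.0 in WT (SD, n = 3).

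Part of this variation moved with the middle meiotic transcripts. The mean log2 CPM of the 19 middle meiotic genes was taken as a score for each library, and members were set against it over the 24 libraries, which share their groups and their depth scaling. Pearson's r was 0.83 for PCK1 and 0.80 for MDH2, 0.61 for ADY2, -0.73 for ACS2, -0.60 for ALD6 and -0.52 for MLS1. The other 4 lay between -0.36 (ICL1) and 0.35 (ACS1), with -0.18 for FBP1 and -0.11 for ALD4. Spearman's rho was 0.77 for PCK1, 0.79 for MDH2 and -0.76 for ACS2. Without the 2 libraries farthest from the median score, r was 0.76, 0.75 and -0.72 in the same order of genes. After the group means were taken off, r was 0.60 for PCK1, 0.80 for MDH2, -0.80 for ACS2, -0.79 for ALD6 and -0.028 for ICL1. These values pool the deviations of all 8 groups, and single groups can differ: in CUP1-PHO92, replicate 1 had the lowest score and the highest PCK1. No p is given for these descriptions. The part of meiotic stage in the changes of ACS2, PCK1, ALD6 and MDH2 was not tested. Of the 19 middle genes, 17 fell in pho92Δ against WT, where 9.48% of all features fell. In L38P against CUP1-PHO92 17 fell, where 20.9% of all features fell. In CUP1-PHO92 against pho92Δ 12 rose, where 16.8% of all features rose. Against CUP1-PHO92, 1 fell in Δ35–42 (11 at an unadjusted p under 0.05, 5 by DESeq2), 1 fell in W177A (6 and 0) and 0 were called in L35A (1 and 0) or in I39A (0 and 0). Of all features, 9.97% fell in Δ35–42 and 13.0% in W177A. The median log2FC of the 19 genes against CUP1-PHO92 was -1.11 in Δ35–42, 0.81 in L35A, 0.11 in I39A and -1.07 in W177A. Against pho92Δ, 18 rose in L35A (9.86% of all features rose) and 13 in I39A (10.4%). Of the 12 early genes, 12 fell in L38P against CUP1-PHO92, where 20.9% of all features fell. IME2, the kinase gene that drives meiotic entry, had 1698 ± 402 CPM in L38P and 4514 ± 729 CPM in CUP1-PHO92, log2FC -1.41 (SE 0.173, adjusted p 1.04e-05), and ZIP1, of the synaptonemal complex, had a log2FC of -1.25 (adjusted p 7.29e-05). The middle genes SPR2 and SMK1, both active in spore formation, had log2FC values of -5.01 (adjusted p 7.70e-04) and -4.83 (adjusted p 4.96e-04) in that comparison. The median log2FC there was -0.91 for the 12 early and -2.37 for the 19 middle genes, and in pho92Δ against WT it was -2.45 for the middle genes.

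**Figure D4:**
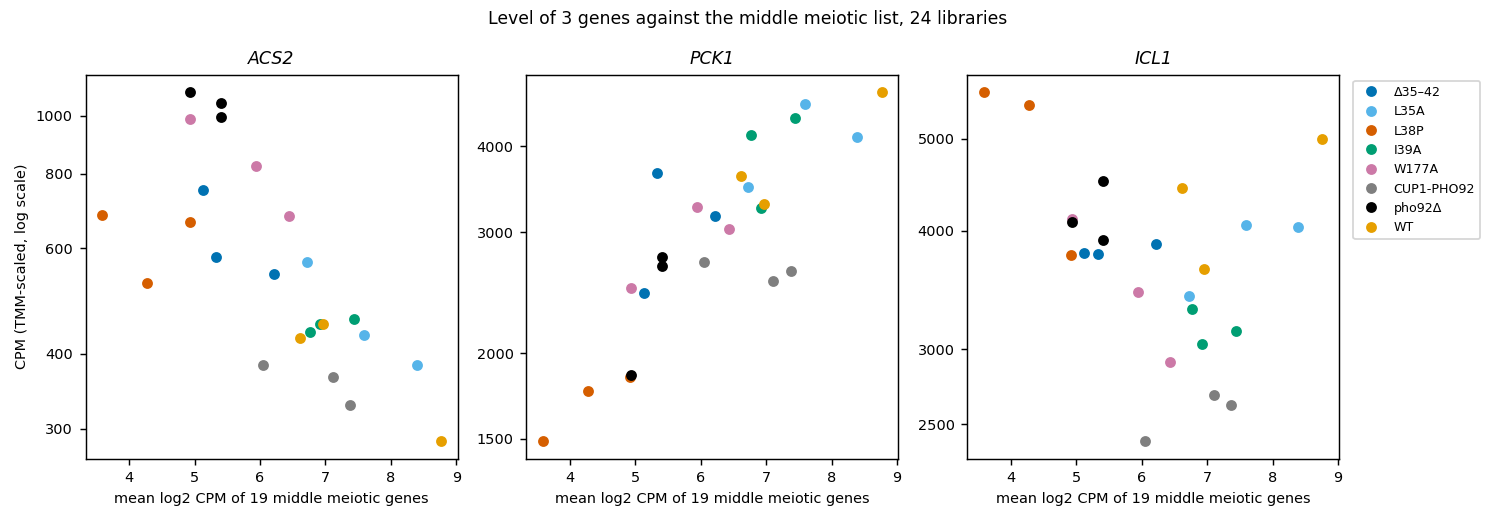
CPM of ACS2, PCK1 and ICL1 (vertical log axes) against the mean log2 CPM of 19 middle meiotic genes (horizontal axes) in the 24 libraries, coloured by group. PCK1 is higher (r = 0.83) and ACS2 lower (r = -0.73) in libraries with a higher score, while ICL1 (r = -0.36) is low in the CUP1-PHO92 libraries across their range.

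The 10 genes did not vary as 1 block. Of the 45 pairs, 28 had a positive and 17 a negative r over the 24 libraries, with a median of 0.18. A trimmed r leaves out the 2 libraries farthest from the median of the gene named first. MDH2 and PCK1 were the most alike (r = 0.86, rho = 0.83, trimmed r = 0.79), followed by ADY2 and ACS1 (r = 0.73, rho = 0.71, trimmed r = 0.63), ALD4 and FBP1 (r = 0.68, rho = 0.61, trimmed r = 0.57) and ICL1 and MLS1 (r = 0.67, rho = 0.58, trimmed r = 0.58). ICL1 and FBP1 had r = 0.60, rho = 0.70, trimmed r = 0.64, and ALD6 and MDH2 r = -0.66, rho = -0.54, trimmed r = -0.56. ICL1 and PCK1 had r = -0.22, rho = -0.14, trimmed r = -0.092. Among all tested features, the 3 most like ICL1 were CRC1, a carnitine carrier of the mitochondrial membrane (r = 0.90), YBR071W (r = 0.87) and CAT2, a carnitine acetyltransferase (r = 0.85). Those most like ACS1 were PXA1 (r = 0.89), which encodes part of the peroxisomal importer of fatty acids, ESP1 (r = 0.88), the separase gene, and FOX2 (r = 0.87), of peroxisomal beta-oxidation. For PCK1 they were PRM2, the neutral trehalase gene NTH1 and NAB2, each at r = 0.91, and for FBP1 YMR103C and DPC7 (r = 0.85 each) and SPG4 (r = 0.83). For ALD6 they were the cell-cycle repressor gene YOX1 (r = 0.87) and the overlapping features YJR079W and AIM24 (r = 0.86 each), which have the same counts in every library.

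Genes around the 10 gave a wider view of the transcripts of carbon metabolism. Of 12 other genes of acetate and acetyl-unit transport and activation, 8 rose and 1 fell in L38P, 6 rose and none fell in W177A, 4 rose and none fell in Δ35–42 and 3 rose and none fell in L35A against CUP1-PHO92, where the shares of all features called higher are those given above. In CUP1-PHO92 6 of the 12 fell against WT, where 3.00% of all features fell, and 7 fell against pho92Δ, where 17.8% fell. In pho92Δ against WT only ALD5 rose. The median log2FC of the 12 was 0.28 in Δ35–42, 0.22 in L35A, 0.70 in L38P, 0.16 in I39A and 0.50 in W177A against CUP1-PHO92, and -0.47 in CUP1-PHO92 against WT, where that of all features was -0.013. Of the 6 that fell against WT, 4 belong to the carnitine shuttle, which carries acetyl groups between compartments. YAT1, a carnitine acetyltransferase of the outer mitochondrial membrane, had 2919 ± 527 CPM in L38P and 1142 ± 97.3 CPM in CUP1-PHO92, log2FC 1.35 (SE 0.184, adjusted p 2.05e-05). In CUP1-PHO92 against WT its log2FC was -1.08 (adjusted p 0.00154). Named after their values were seen, the acetyltransferase genes YAT2 and CAT2 and the carrier gene CRC1 had log2FC values of -0.97 (adjusted p 0.00119), -0.77 (adjusted p 0.00154) and -0.52 (adjusted p 0.0222) in the same comparison. In L38P against CUP1-PHO92 they had 0.96 (adjusted p 8.26e-05), 0.72 (adjusted p 2.45e-04) and 0.68 (adjusted p 4.69e-04). These genes thus stood low in CUP1-PHO92, like ICL1. ALD5, a minor mitochondrial aldehyde dehydrogenase gene, had 355 ± 28.7 CPM in L38P and 146 ± 23.6 CPM in CUP1-PHO92, log2FC 1.28 (SE 0.206, adjusted p 8.56e-05).

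The counts of the lists that follow stand against shares of all features called, higher or lower, of 27.9% in W177A, 22.6% in L35A, 21.8% in Δ35–42 and 44.0% in L38P. A list's count near that share is no result about the list. Of 13 partners of the glyoxylate cycle, 8 rose and none fell in L38P, 5 rose and none fell in L35A, 4 rose and none fell in W177A and 3 rose and none fell in Δ35–42 against CUP1-PHO92. DIC1, the mitochondrial dicarboxylate carrier gene, had 252 ± 85.3 CPM in L38P and 86.5 ± 23.4 CPM in CUP1-PHO92, log2FC 1.54 (SE 0.240, adjusted p 6.47e-05). MAE1, the malic enzyme gene, had 465 ± 67.2 CPM in L38P and 199 ± 28.2 CPM in CUP1-PHO92, log2FC 1.23 (SE 0.228, adjusted p 3.08e-04). Of 17 genes of the tricarboxylic acid cycle, 4 rose and none fell in W177A, 3 rose and 1 fell in Δ35–42, 2 rose and 1 fell in L38P and 2 rose and none fell in L35A against CUP1-PHO92. The 3 of 17 in L38P and 2 of 17 in L35A are smaller shares than those of all features. The 4 of 17 in W177A and the 4 of 17 in Δ35–42 are near theirs. CIT3, a mitochondrial citrate and methylcitrate synthase gene, had 4005 ± 1456 CPM in W177A and 2263 ± 227 CPM in CUP1-PHO92, log2FC 0.82 (SE 0.194, adjusted p 0.00411), and KGD1, of the 2-oxoglutarate dehydrogenase complex, had 1316 ± 193 CPM in L35A and 776 ± 92.9 CPM in CUP1-PHO92, log2FC 0.76 (SE 0.122, adjusted p 3.69e-04). Of the 17, 3 fell in CUP1-PHO92 against WT (3.00% of all features), 3 fell in pho92Δ against WT (9.48%) and 6 fell in CUP1-PHO92 against pho92Δ (17.8%).

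Of the glycolytic genes the reversible and irreversible steps were counted apart. Of 10 genes of reversible steps, which serve glycolysis and gluconeogenesis alike, edgeR called 1 in L38P against CUP1-PHO92. In Δ35–42, L35A, I39A and W177A it called 0, with 1, 0, 0 and 2 at an unadjusted p under 0.05 and 1, 0, 0 and 0 by DESeq2. The 1 in L38P was PGI1, the phosphoglucose isomerase gene, with 209 ± 9.24 CPM in L38P and 119 ± 22.8 CPM in CUP1-PHO92, log2FC 0.82 (SE 0.193, adjusted p 0.00223). Of 7 genes of irreversible glycolytic steps, 1 rose and 1 fell in L38P. HXK2, the hexokinase of growth on glucose, had 33.5 ± 8.13 CPM in L38P and 14.4 ± 3.40 CPM in CUP1-PHO92, log2FC 1.22 (SE 0.210, adjusted p 1.54e-04), whereas HXK1 had 170.0 ± 51.7 CPM in L38P and 285 ± 85.8 CPM in CUP1-PHO92, log2FC -0.74 (SE 0.282, adjusted p 0.0386). 1 of the 7 rose in L35A and 1 in Δ35–42, in both cases PYK2, a pyruvate kinase gene, with log2FC values of 0.40 (adjusted p 0.00667) and 0.34 (adjusted p 0.0184). PYK2 is named after its values were seen. Against pho92Δ, 3 of the 10 reversible genes fell in L35A, where 11.2% of all features fell, with a median log2FC of -0.65. In pho92Δ against WT 1 of the 10 rose, where 8.18% of all features rose, with a median of 0.67. Of 19 regulators of gluconeogenic transcription, 7 rose and 2 fell in W177A, 6 rose and 2 fell in L35A, 5 rose and 2 fell in Δ35–42 and 4 rose and 3 fell in L38P against CUP1-PHO92. In L38P the 7 of 19 are a smaller share than the 44.0% of all features called there. The glucose repressor gene MIG2 had 1.37 ± 0.429 CPM in L38P and 0.403 ± 0.0952 CPM in CUP1-PHO92, log2FC 1.77 (SE 0.529, adjusted p 0.0112), a low level in both. Another list held 10 genes of the GID ubiquitin ligase and of factors linked to it. This ligase degrades Fbp1, Pck1, Icl1 and Mdh2 when glucose returns. Of the 10, 3 rose and 1 fell in W177A and 3 rose and 1 fell in L35A against CUP1-PHO92. In Δ35–42 2 rose and none fell, and in L38P 2 rose and 1 fell. FYV10 had 119 ± 18.2 CPM in L38P and 208 ± 29.6 CPM in CUP1-PHO92, log2FC -0.80 (SE 0.133, adjusted p 1.11e-04) and the substrate receptor gene GID10 41.2 ± 13.0 CPM in L38P and 23.9 ± 0.777 CPM in CUP1-PHO92, log2FC 0.79 (SE 0.188, adjusted p 0.00233). In I39A against CUP1-PHO92, edgeR called 0 of the 88 entries of these 7 pathway lists (HXK2 stands in 2 of them), 12 had an unadjusted p under 0.05 and DESeq2 called 0. In L38P against CUP1-PHO92, where the median log2FC of all features was 0.042, that of the list was 0.33 for the glyoxylate partners, 0.017 for the tricarboxylic acid cycle, 0.34 for reversible and 0.11 for irreversible glycolytic steps, 0.018 for the regulators and -0.12 for the GID ligase.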

How the data were processed

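The values are the authors' deposited counts, whole numbers for each annotated feature that were not normalized. The submitters' processing notes name STAR 2.7.10a, RSEM 1.3.1 and DESeq2 1.48.1 without their roles; the genome build, annotation and strand setting are not given in the sources used here, so overlapping and antisense features may share reads. Per the labels' protocols, libraries were poly(A)-selected, directional and paired-end. Groups and replicate numbers come from the sample titles. All 24 columns were mapped.

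R 4.3.3 with edgeR 4.0.16, limma 3.58.1 and DESeq2 1.42.0 was used. After filterByExpr (459 features removed, 5698 tested) and TMM scaling, all 24 libraries entered 1 quasi-likelihood fit of group means (16 residual degrees of freedom), from which 13 comparisons were drawn. Benjamini-Hochberg adjustment ran over all tested features, and a gene was called at an adjusted p under 0.05 with no minimum fold. CPM were computed on TMM-scaled library sizes (prior count 2 for log2 values), and errors are SD over 3 libraries or the SE of a log2 fold change. Depths of 16108079 to 36733806 counts put 3 counts at 0.0828 to 0.179 CPM, which covers counting error only. Coding lengths, sequences and motif windows are from RefSeq R64, and no coordinates were taken from the table.

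The members and all gene lists were chosen with earlier results of these data known. Of each list, the 2 called genes with the largest change in the mutants against CUP1-PHO92 or in pho92Δ against WT are named, and for ACS1, ALD6, ICL1, PCK1 and FBP1 the 3 features with the highest r over the 24 libraries. Alternatives were RLE scaling, no filter, the replicate number as a block, DESeq2, batch A alone and leaving out each library. Deviations from the group means correlated over 0.1 in all 3 same-number pairs in 5 comparisons (Δ35–42, L35A and I39A against CUP1-PHO92, L35A and W177A against pho92Δ) and not in the other 8. In those 5 the replicate block changed no call among the 10 genes. Replicates differed by more than sampling noise (chi-square per degree of freedom 21.9 to 224), so no library was counted as a duplicate.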

Additional observations from a re-analysis of the deposited data

How the results depend on the processing

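Of the 32 calls among 130 tests of the 10 genes, 15 held under every alternative and 17 were lost under at least 1, and no called value changed sign. RLE scaling and the absence of a filter each ended 1 call (ACS1 in W177A against CUP1-PHO92), batch A alone ended 7 and leaving out a library ended 55 over all such fits. The replicate block and DESeq2 ended none, and they added 3 and 8 calls, batch A alone 5 and leaving out a library 6. The replicate block gave 617 called features in CUP1-PHO92 against WT, 6 in I39A against CUP1-PHO92, 39 in Δ35–42 against pho92Δ and 158 in W177A against pho92Δ, against 395, 3, 6 and 77 without it. With the block 1 of the 10 genes (ACS2) was called in Δ35–42 against pho92Δ. Same-number pairing held in the 2nd and last of these 4 comparisons only. Batch A alone gave 5 of the 10 genes in L35A and 3 in W177A against CUP1-PHO92, and 1 in Δ35–42 and 2 in L38P against pho92Δ. It gave 32 features in Δ35–42 and 288 in W177A against pho92Δ. No library of L35A, Δ35–42, CUP1-PHO92 or pho92Δ is removed in that fit. DESeq2 gave 5 of the 10 genes in L35A against CUP1-PHO92 and 1 in Δ35–42 against pho92Δ. It called 29 features in I39A against CUP1-PHO92, and 87 in Δ35–42 and 196 in W177A against pho92Δ. Leaving out 1 library gave counts of the 10 genes of 2 to 3 (Δ35–42 against CUP1-PHO92), 1 to 4 (L35A against CUP1-PHO92), 3 to 5 (L38P against CUP1-PHO92), 0 to 0 (I39A against CUP1-PHO92), 2 to 4 (W177A against CUP1-PHO92), 0 to 0 (Δ35–42 against pho92Δ), 1 to 2 (L35A against pho92Δ), 2 to 5 (L38P against pho92Δ), 1 to 2 (I39A against pho92Δ), 0 to 0 (W177A against pho92Δ), 2 to 3 (CUP1-PHO92 against pho92Δ), 1 to 2 (CUP1-PHO92 against WT) and 1 to 2 (pho92Δ against WT). The counts of all features in the same order were 728 (without CUP1-PHO92 replicate 3) to 1334, 707 (without L35A replicate 1) to 1269, 1753 (without L38P replicate 2) to 2485, 2 (without CUP1-PHO92 replicate 1) to 4, 1003 (without CUP1-PHO92 replicate 3) to 1397, 2 (without pho92Δ replicate 1) to 14, 296 (without L35A replicate 2) to 1514, 1020 (without L38P replicate 2) to 1988, 496 (without pho92Δ replicate 3) to 1009, 3 (without W177A replicate 2) to 285, 1200 (without pho92Δ replicate 3) to 1655, 147 (without CUP1-PHO92 replicate 1) to 361 and 213 (without WT replicate 2) to 1095. Without the filter, 57.0% of the calls in pho92Δ against WT were higher, against 46.3% with it, and 37.2% against 49.7% in I39A against pho92Δ. Without WT replicate 2 the share was 88.3% in pho92Δ against WT, and without L35A replicate 2 it was 27.4% in L35A against pho92Δ, where it was 46.9% with all libraries. No scaling moved the median of all features by 0.1 on the log2 scale. The cause of these differences was not tested. ALD6, the least abundant of the 10 genes, had the largest spread between replicates.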
